A study of Hordeum vulgare with 12 samples.

Results

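The genotype by zeocin interaction asks, for each gene, whether zeocin shifted its transcript by a different factor in *hvatr.g* plants than in WT. It was computed as the log2 fold change of zeocin-treated over mock-treated *hvatr.g* minus the log2 fold change of zeocin-treated over mock-treated WT, and it used 12 of the 12 libraries of the series. A positive difference means that zeocin left the gene higher, relative to its own mock level, in *hvatr.g* than in WT, and a negative one that zeocin left it lower. Poly(A) RNA came from root apices of barley (*Hordeum vulgare*) seedlings that had grown for 7 days in vitro and then spent 6 h in liquid medium. The groups were zeocin-treated *hvatr.g* (500 µg/ml), mock-treated *hvatr.g* (0 µg/ml), zeocin-treated WT (500 µg/ml) and mock-treated WT (0 µg/ml), with 3 libraries each, and WT is cultivar Sebastian. The line *hvatr.g* carries a TILLING allele of *ATR* in the Sebastian background that the study describes as a loss of function. It is 1 line, so the *ATR* allele and any other difference between that line and Sebastian cannot be told apart in what follows. The study calls its replicates biological. Its methods describe the dissection of all apices of 1 plant and the use of 3 plants per treatment for an earlier assay and say that material for sequencing was made in a similar way. The labels name no plant for a library, so p-values measure the spread between these libraries. Of 83990 rows of the count table, 26039 (25807 genes) held enough counts to be tested.

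Zeocin belongs to the bleomycin family of antibiotics, which cut DNA and leave single-strand breaks and, less often, double-strand breaks. In plants, as in animals, the kinases ATM and ATR read such damage: ATM responds mainly to double-strand breaks and ATR mainly to the single-stranded DNA of stalled forks and processed breaks. In *Arabidopsis* both act on the NAC transcription factor SOG1, which raises repair genes and slows the cell cycle. The root apex holds the dividing cells of the meristem. Histone genes are transcribed mostly while DNA is copied in S phase, and B-type cyclins, kinesins and TPX2 proteins serve the mitosis that follows, so transcripts of these families can follow how many cells of an apex are in those phases. RNA was extracted from whole apices, so fewer cells of a type and less RNA per cell cannot be told apart.

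Total counts per library ran between 36100439 and 74699245, and the highest belonged to mock-treated *hvatr.g* replicate 1. *ATR* (HORVU.MOREX.r3.7HG0748510) itself had 17.8, 14.3 and 15.2 CPM in zeocin-treated *hvatr.g* and 20.5, 15.4 and 13.1 CPM in mock-treated *hvatr.g*, against 11.4, 13.9 and 9.68 CPM in zeocin-treated WT and 13.3, 15.4 and 9.85 CPM in mock-treated WT. Zeocin and mock libraries overlapped in both genotypes, and its difference between the responses was 0.09 (95% interval -0.55 to 0.72). A TILLING allele need not lower the transcript, so this level is no check of the labels. Mock-treated WT replicate 3 and zeocin-treated WT replicate 3 resembled each other (Pearson r of log2 CPM across genes 0.979) more than the first resembled the other mock-treated WT libraries (0.972 and 0.968) or the second the other zeocin-treated WT libraries (0.974 and 0.967). Genes are not independent replicates, so these r carry no p. The leading counts for histones, cyclins and the strongest falls are therefore also given without these libraries. Expansin genes (10 measured), which loosen walls of elongating cells, summed to between 42.6 and 119.8 CPM in the *hvatr.g* libraries, against 413 to 683 CPM in the WT libraries, and class III peroxidase genes (22 measured) to 271 to 317 CPM against 499 to 726 CPM. The marker genes of this paragraph were taken by description from the study's tables, which were made from these libraries. Their gap between the genotypes is therefore not independent evidence. Within *hvatr.g*, zeocin and mock libraries overlapped for the expansins, and for the peroxidases the zeocin libraries (292 to 317 CPM) lay above the mock libraries (271 to 283 CPM). In WT the zeocin libraries had less peroxidase transcript (499 to 602 CPM) than the mock libraries (621 to 726 CPM), also without overlap. Xyloglucan endotransglucosylases of the marker list (7 measured), which remodel cell walls, summed to 27.4 to 41.9 CPM after zeocin and 90.5 to 119.5 CPM after mock in *hvatr.g*, against 43.6 to 68.2 CPM and 88.05 to 103 CPM in WT, so that they were lower after zeocin in both genotypes. Median differences were -0.0037 for expansins, -0.35 for peroxidases and -0.43 for xyloglucan endotransglucosylases. The part of these differences in the results below was not tested. The 1 measured gene of the green tissue markers reached at most 0.481 CPM in any library.

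No gene passed an adjusted p under 0.05 for the interaction, that is 0 of 26039 (0%) when the p-values of edgeR's quasi-likelihood fit were adjusted by the Benjamini-Hochberg method. The smallest adjusted p in that edgeR test was 0.149, with no gene under 0.1 and 7 under 0.2. At an unadjusted p under 0.05 there were 315 genes with a positive difference (1.21%) and 805 with a negative one (3.09%), together 1120 genes or 4.3% of those tested. Over all genes, 14110 (54.2%) had a negative and 11929 a positive difference, with a median of -0.02. DESeq2, the tool the study used, called 17 genes with a positive difference (0.0653% of 26034 genes with an adjusted p) and 95 with a negative one (0.365%). Without a filter on low counts edgeR called 4 positive (0.00942% of 42453) and 29 negative genes (0.0683%). All 33 of these also passed the filter, where none of them was called, and all 33 were among the 112 genes that DESeq2 called. Limma-voom called 1 gene. Same-numbered WT libraries deviated together, and with the replicate number as a block within each genotype edgeR called 0 genes, with 755 positive and 1550 negative at an unadjusted p under 0.05. Whether a gene counts as called thus depended on the tool and the filter, and the values below are given for genes that no more than some of these tests called.

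The precision of the difference sets what could be seen. It combines 4 group means of 3 libraries each, and its SE had a median of 0.31 on the log2 scale. The 95% interval extended by a median of 0.67 to either side. For 14708 genes (56.5%) the whole interval lay between -1 and 1, so the 2 genotypes differed there by less than 1 log2 unit of zeocin response, at this level of confidence for each gene alone. A fitted difference of at least 1 was seen in 666 genes and of at most -1 in 929. In 47 genes (0.18%) zeocin and mock libraries did not overlap in either genotype and moved in opposite directions, with 28 lower after zeocin in *hvatr.g* and higher in WT, and 19 the reverse.

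**Figure D1:**
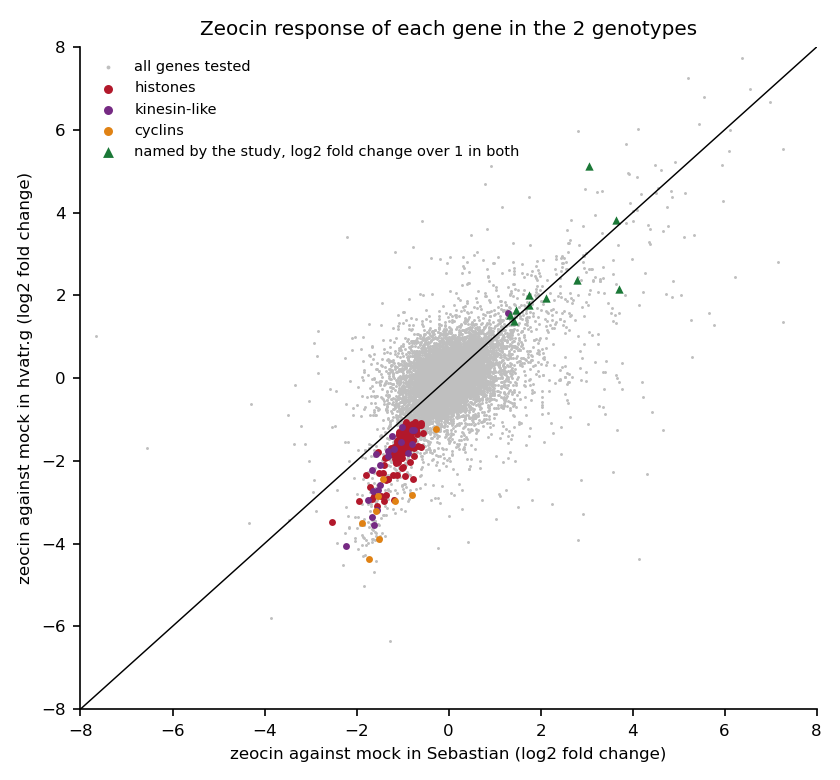
Each point is 1 of the 26039 genes tested, with the log2 fold change of zeocin over mock in Sebastian on the x axis, that in *hvatr.g* on the y axis, and the line of equal response. All 131 histone genes (red), 21 of 22 kinesin-like genes (purple) and 9 of 9 cyclins (orange) lie below the line, and the green triangles are genes named by the study's text with a log2 fold change over 1 in both genotypes. The histone, kinesin-like and cyclin genes come from the study's tables of genes that responded in these libraries, so their side of the line is not independent evidence.

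The differences at an unadjusted p under 0.05 were sorted by the direction of each genotype's response. Among the 805 genes with a negative difference at an unadjusted p under 0.05, 422 were lower after zeocin in both genotypes and further down in *hvatr.g*, 293 were lower in *hvatr.g* and higher in WT, and 90 were higher in both and less so in *hvatr.g*. Of all 14110 genes with a negative difference, 5292, 4371 and 4441 fell into these classes in the same order. Among the 315 positive ones, 230 were higher in *hvatr.g* and lower in WT, 67 were further up in *hvatr.g* and 18 less far down. Of all 11929 genes with a positive difference these classes held 4209, 4420 and 3293. When the genes were ordered by the mean of their 2 zeocin responses, the 152 genes with a mean under -2 had a median difference of -1.57, with a median response of -3.21 in *hvatr.g* and -1.66 in WT. Of these, 139 (91.4%) had a negative difference, and 113 had it at an unadjusted p under 0.05, against 1 with a positive one. The 504 genes with a mean between -2 and -1 had a median difference of -0.62 (83.5% negative). In the 22371 genes between -0.5 and 0.5 the median was -0.02, close to that of all genes. On the other side the medians were 0.05 between 0.5 and 1 (1114 genes), -0.14 between 1 and 2 (436 genes) and -0.30 over 2 (183 genes). For the 152 genes the median kept its sign when any 1 library was left out (-1.87 to -1.31), and it was -1.40 without both WT replicate 3 libraries, where 102 of 151 genes had a negative difference at an unadjusted p under 0.05. The bins and the difference come from the same libraries, so these are descriptions and carry no test.

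**Figure D2:**
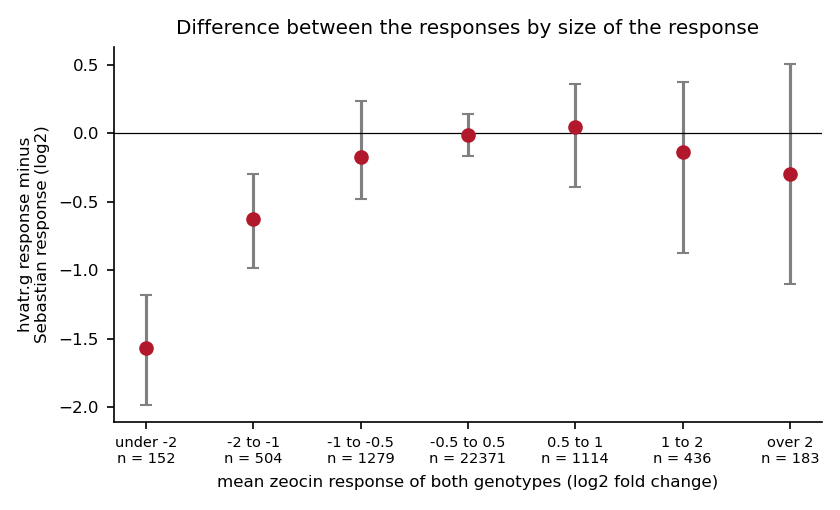
Median difference between the zeocin responses (points, log2, *hvatr.g* minus Sebastian) and its quartiles over genes (bars) in 7 bins of the mean response of both genotypes, with the number of genes under each bin. The medians are -1.57 and -0.62 in the 2 bins of genes that were lowest after zeocin and between -0.30 and 0.05 in the 5 others.

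The 131 histone genes that the study listed all had negative differences. They were taken by description from its tables of genes that responded in these libraries, and all 131 passed as lowered in *hvatr.g* here. Histone genes that did not respond are not among them, so the list does not speak for histones as a family and its direction is not independent evidence. All 131 had a negative difference, with a median of -0.63, against a median of -0.02 and 54.2% negative over all genes tested. At an unadjusted p under 0.05 there were 72 of them, against 3.09% of all genes, and DESeq2 called 8. With the replicate block within genotype 114 of them had an unadjusted p under 0.05. Responses were counted as called at an edgeR adjusted p under 0.05 with a change of 1 log2 unit or more, which 895 genes passed in *hvatr.g* (3.44%) and 527 in WT (2.02%). All 131 histone genes were called as lowered in *hvatr.g* and 58 in WT. The other WT responses were negative as well, and the median response over the 131 was -1.65 in *hvatr.g* and -0.99 in WT. Summed over the list, histone transcripts made up 5085, 4857 and 3911 CPM in zeocin-treated *hvatr.g* and 12773, 12529 and 12911 CPM in mock-treated *hvatr.g*, against 6488, 6413 and 8578 CPM in zeocin-treated WT and 11392, 13057 and 16756 CPM in mock-treated WT. Zeocin-treated *hvatr.g* was lowest and did not overlap with zeocin-treated WT, while the mock groups overlapped. WT replicate 3 was the highest of its group under both treatments. The classes of core histones lay close together, with medians of -0.64 for 31 H2A, -0.61 for 25 H2B, -0.73 for 30 H3 and -0.61 for 43 H4 genes, and -0.66 for 2 genes of the linker histone H1. The count at an unadjusted p under 0.05 moved with single libraries. Removing mock-treated WT replicate 3 gave 112, and removing its zeocin-treated counterpart 45. Removing replicate 1 of mock-treated WT or replicate 3 of zeocin-treated *hvatr.g* gave 46 in each case. With neither WT replicate 3 library the count was 106. The median stayed between -0.84 and -0.46 when 1 library was left out. Copies of histone genes are nearly identical, so reads may have been split between them and single copies are uncertain.

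A pair of H3 genes had the smallest p of the family. HORVU.MOREX.r3.7HG0658120 had 2.46, 2.56 and 1.82 CPM in zeocin-treated *hvatr.g* and 19.6, 17.4 and 15.6 CPM in mock-treated *hvatr.g*, against 6.11, 4.77 and 7.22 CPM in zeocin-treated WT and 11.2, 14.5 and 15.6 CPM in mock-treated WT. All 3 zeocin-treated *hvatr.g* libraries were below all others, and its difference was -1.75 ± 0.28 (SE, 95% interval -2.35 to -1.15), with an adjusted p of 0.154 in edgeR's quasi-likelihood test and 1.53e-05 in DESeq2. HORVU.MOREX.r3.7HG0709110 had 1.95, 2.38 and 1.65 CPM in zeocin-treated *hvatr.g* and 19.3, 16.2 and 15.3 CPM in mock-treated *hvatr.g*, against 5.27, 4.55 and 6.21 CPM in zeocin-treated WT and 12.5, 17.05 and 17.4 CPM in mock-treated WT. Zeocin-treated *hvatr.g* was again the lowest group without overlap, and the difference was -1.54 (95% interval -2.12 to -0.96).

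Cyclins, the regulatory partners of the cyclin-dependent kinases, had the most negative median difference among the cell cycle families. All 9 cyclins that the study listed, again from these libraries, had a negative difference at an unadjusted p under 0.05, with a median of -1.63, and DESeq2 called 4. Over all genes tested 3.09% had a negative difference at that p, and DESeq2 called 0.365% as negative. All 9 were called as lowered in *hvatr.g* and 5 in WT, so this direction is not independent evidence either. Summed, they reached 32.4, 40.3 and 17.9 CPM in zeocin-treated *hvatr.g* and 294, 235 and 227 CPM in mock-treated *hvatr.g*, against 82.3, 55.5 and 107 CPM in zeocin-treated WT and 207, 208 and 207 CPM in mock-treated WT. Without both WT replicate 3 libraries 8 of 9 kept an unadjusted p under 0.05, and leaving out 1 library at a time moved the median between -1.90 and -1.29. *CYCA3;1.A* (HORVU.MOREX.r3.4HG0342640), a cyclin of the A type, which act from S phase on, had 2.38, 4.04 and 2.38 CPM in zeocin-treated *hvatr.g* and 23.8, 21.1 and 17.6 CPM in mock-treated *hvatr.g*, against 14.2, 10.2 and 13.96 CPM in zeocin-treated WT and 21.4, 19.7 and 25.1 CPM in mock-treated WT. It fell in *hvatr.g*, with a log2 response of -2.83, whereas its response in WT was -0.79 (adjusted p in the same edgeR test 0.0749). Its difference of -2.05 ± 0.30 (SE, 95% interval -2.71 to -1.38) had an unadjusted p of 2.06e-05 and an adjusted p of 0.149 in edgeR and an adjusted p of 1.39e-06 in DESeq2. *CYCB1;2.C* (HORVU.MOREX.r3.3HG0295540), a mitotic B-type cyclin, had 8.34, 9.804 and 3.496 CPM in zeocin-treated *hvatr.g* and 79.2, 60.9 and 59.5 CPM in mock-treated *hvatr.g*, against 20.01, 12.5 and 21.7 CPM in zeocin-treated WT and 56.5, 57.3 and 48.7 CPM in mock-treated WT. It fell in both genotypes, with log2 responses of -3.204 in *hvatr.g* and -1.58 in WT, with a difference of -1.62 (95% interval -2.55 to -0.69) and a DESeq2 adjusted p of 0.0629. *CYCB2;3.B* (HORVU.MOREX.r3.7HG0751620) and *CYCB1;2.B* (HORVU.MOREX.r3.1HG0069480) had differences of -2.39 and -1.82. The widest interval belonged to *CYCA1.A* (HORVU.MOREX.r3.3HG0249410), at -2.65 (95% interval -4.31 to -0.99), where 1 zeocin-treated *hvatr.g* library had 0.101 CPM and the others 1.48 and 2.15 CPM. *CYCD3;3* (HORVU.MOREX.r3.5HG0467900), a D-type cyclin of the step into S phase, had the smallest difference of the 9, -0.96 (95% interval -1.69 to -0.23).

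Families of the mitotic spindle, also listed by the study from these libraries, lay on the same side. The *hvatr.g* response was called for all 22 kinesin-like and all 3 TPX2 genes, and the WT response for 16 and 3. Their direction is therefore not independent evidence. Over all genes tested 3.09% had a negative difference at an unadjusted p under 0.05, and DESeq2 called 0.365% as negative. The 22 kinesin-like genes, motor proteins that move along microtubules, had a median difference of -0.59, with 21 negative, 10 at an unadjusted p under 0.05 and 3 called by DESeq2. The median was -0.38 without mock-treated *hvatr.g* replicate 1. HORVU.MOREX.r3.2HG0174320 among them had 2.01, 2.17 and 0.988 CPM in zeocin-treated *hvatr.g* and 33.9, 25.6 and 26.6 CPM in mock-treated *hvatr.g*, against 6.73, 4.02 and 6.38 CPM in zeocin-treated WT and 24.03, 31.6 and 24.5 CPM in mock-treated WT. Zeocin lowered it in both genotypes, and zeocin-treated *hvatr.g* was below zeocin-treated WT in every library, with a difference of -1.83 (95% interval -2.64 to -1.02) and a DESeq2 adjusted p of 0.00218. All 3 TPX2 genes, whose products seed spindle microtubules, had a negative difference at an unadjusted p under 0.05 (median -1.51), and DESeq2 called 1. *TORTIFOLIA1* (HORVU.MOREX.r3.5HG0505730), which encodes a microtubule-associated protein, had 3.13, 4.53 and 2.56 CPM in zeocin-treated *hvatr.g* and 26.2, 17.9 and 16.3 CPM in mock-treated *hvatr.g*, against 8.72, 5.62 and 11.7 CPM in zeocin-treated WT and 18.4, 18.3 and 14.4 CPM in mock-treated WT. Its log2 response was -2.57 in *hvatr.g* and -0.97 in WT (edgeR adjusted p 0.0996 in WT), and zeocin libraries lay below mock libraries in both genotypes. Its difference was -1.59 (95% interval -2.46 to -0.73), and its DESeq2 adjusted p was 0.0352. *MAD2* (HORVU.MOREX.r3.2HG0176870), part of the spindle checkpoint, differed less, by -0.37 (95% interval -0.83 to 0.09). The gene that the study names *CDKB2;2* (HORVU.MOREX.r3.4HG0384440), and that its tables describe as an importin, had -0.69 (95% interval -1.29 to -0.09). *FBL17.A* (HORVU.MOREX.r3.5HG0433490), whose *Arabidopsis* counterpart removes inhibitors of cyclin-dependent kinases, had -0.63 (95% interval -1.19 to -0.07).

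**Figure D3:**
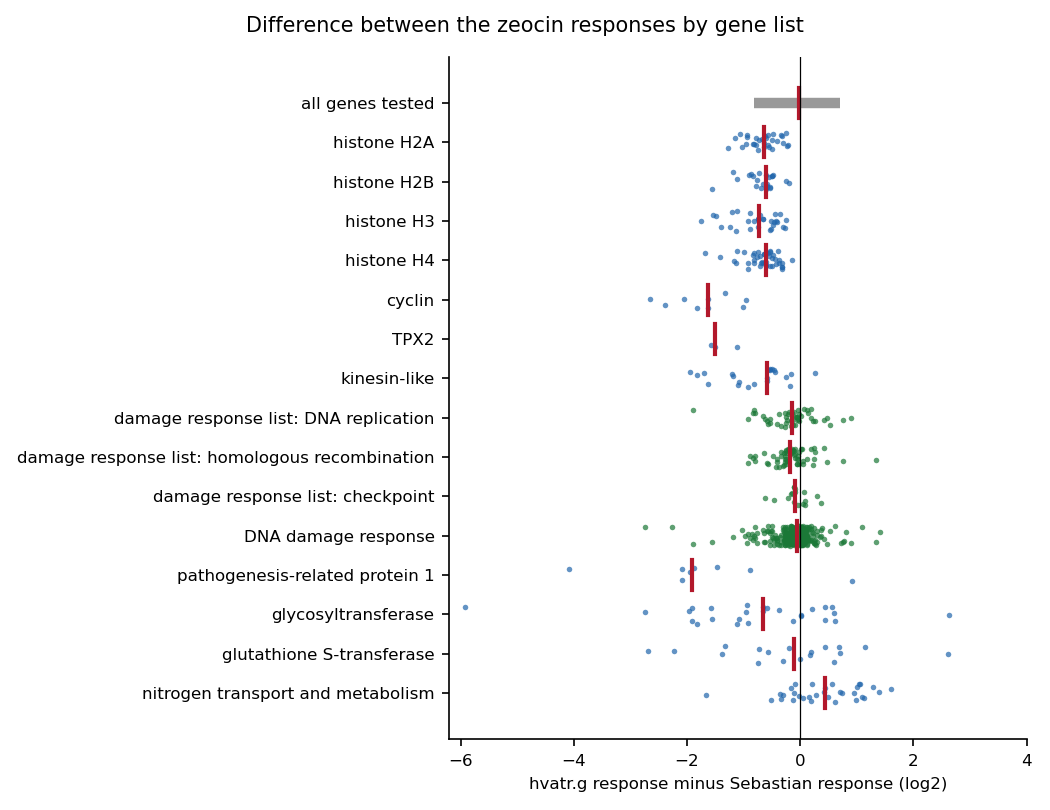
Difference between the zeocin responses (log2, *hvatr.g* minus Sebastian) for each gene of 15 lists, with blue points for families chosen by the study on these libraries, green points for damage response genes found by homology, and a red line at each median. The grey bar spans the 5th to 95th percentile of all 26039 genes, and the medians run between -1.91 for pathogenesis-related protein 1 and 0.43 for nitrogen genes.

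Replication genes separated into a few with large differences and many near 0. The homology list of the study holds 71 DNA replication genes, of which 49 were tested. Their median difference was -0.14, 36 were negative and 13 positive, and 6 were negative at an unadjusted p under 0.05 against none positive. Over all genes tested 54.2% were negative, and 3.09% were negative and 1.21% positive at that unadjusted p. *POLD4.A* (HORVU.MOREX.r3.1HG0076970), for a small subunit of DNA polymerase delta, which copies the lagging strand, had 0.866, 1.24 and 0.684 CPM in zeocin-treated *hvatr.g* and 15.4, 13.2 and 14.04 CPM in mock-treated *hvatr.g*, against 2.41, 2.29 and 2.91 CPM in zeocin-treated WT and 8.85, 11.02 and 11.5 CPM in mock-treated WT. It fell in both genotypes, with log2 responses of -3.93 in *hvatr.g* and -2.04 in WT, and the 4 groups did not overlap with each other. Its difference was -1.89 ± 0.29 (SE, 95% interval -2.52 to -1.27), with an adjusted p of 0.149 in edgeR and 1.39e-06 in DESeq2. *POLD1* (HORVU.MOREX.r3.6HG0541090), the catalytic subunit of the same polymerase, had 3.37, 3.36 and 3.37 CPM in zeocin-treated *hvatr.g* and 2.75, 1.61 and 2.98 CPM in mock-treated *hvatr.g*, against 5.63, 2.76 and 9.88 CPM in zeocin-treated WT and 0.893, 1.24 and 2.19 CPM in mock-treated WT. It rose in WT, with a log2 response of 2.08, and its zeocin-treated WT libraries lay on both sides of those of *hvatr.g*. The response in *hvatr.g* was 0.46 (edgeR adjusted p 0.740). Its difference was -1.62 (95% interval -2.94 to -0.30) with an unadjusted p of 0.0203 and an adjusted p of 0.995 in edgeR. *PRIM2* (HORVU.MOREX.r3.2HG0162680), the large primase subunit, had a difference of -0.60 (95% interval -1.16 to -0.03), and *PSF1* (HORVU.MOREX.r3.1HG0073980), of the GINS complex that travels with the helicase, one of -0.56 (95% interval -1.29 to 0.18). Genes named DNA ligase (HORVU.MOREX.r3.5HG0480450) and DNA ligase-like (HORVU.MOREX.r3.7HG0706640) had -0.61 (95% interval -1.15 to -0.08) and -1.27 (95% interval -2.68 to 0.14). *FAS1* (HORVU.MOREX.r3.5HG0501270), a subunit of the CAF-1 complex that loads histones onto new DNA, had 8.05, 10.1 and 5.35 CPM in zeocin-treated *hvatr.g* and 74.2, 54.03 and 40.4 CPM in mock-treated *hvatr.g*, against 17.9, 15.5 and 13.5 CPM in zeocin-treated WT and 49.7, 66.8 and 31.9 CPM in mock-treated WT. It fell in both genotypes and its difference was -1.18 (95% interval -2.09 to -0.28). The 5 genes described as DNA helicase are not from the homology list but from the study's tables of genes that responded in these libraries. All 5 passed as lowered in *hvatr.g* and 3 in WT, so their direction is not independent evidence. They all had negative differences (median -0.65), 2 of them at an unadjusted p under 0.05.

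The subunit of ribonucleotide reductase encoded by *TSO2* (HORVU.MOREX.r3.7HG0670020), an enzyme that makes the building blocks of DNA, was raised in both genotypes, with a larger fitted fold change in *hvatr.g*. It had 942, 812 and 876 CPM in zeocin-treated *hvatr.g* and 171, 144 and 147 CPM in mock-treated *hvatr.g*, against 498, 614 and 457 CPM in zeocin-treated WT and 144, 173 and 168 CPM in mock-treated WT. The mock libraries of both genotypes overlapped, and all zeocin-treated *hvatr.g* libraries were above all zeocin-treated WT libraries. Its difference was 0.81 ± 0.18 (SE, 95% interval 0.41 to 1.22), with an unadjusted p of 8.33e-04 and an adjusted p of 0.378 in edgeR and an adjusted p of 0.01296 in DESeq2. It was the 1 gene of the homology list with a positive difference that DESeq2 called.

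**Figure D4:**
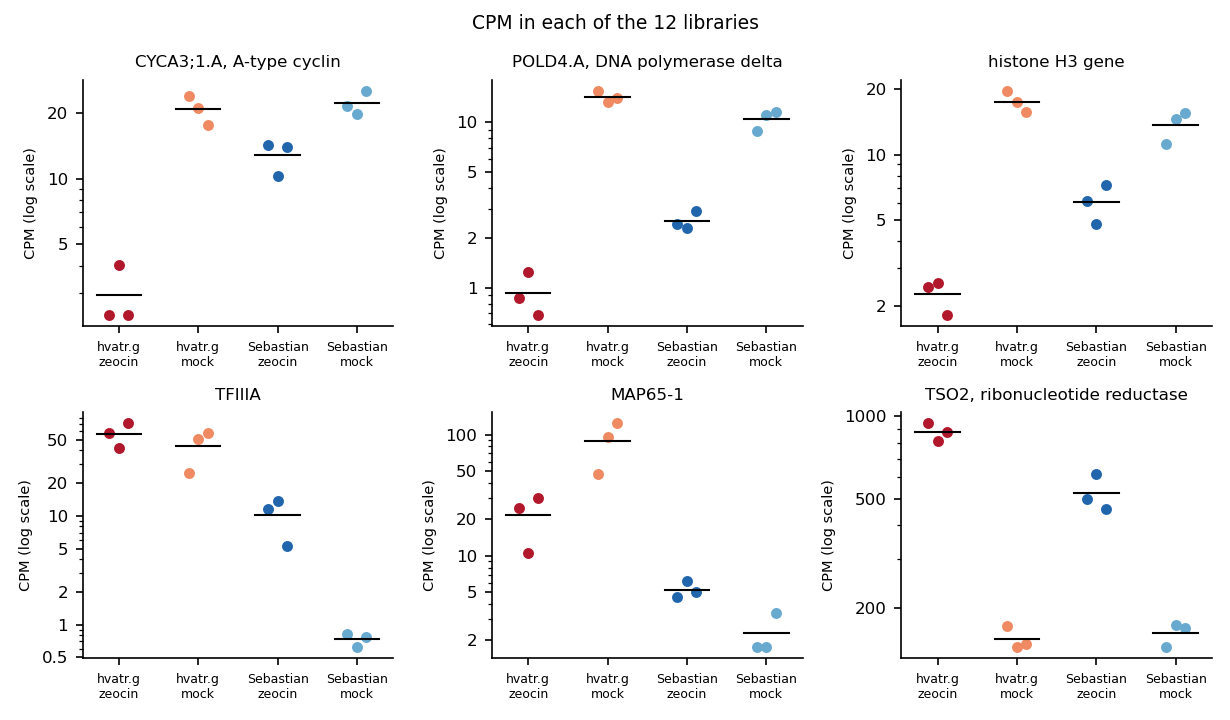
CPM (log scale) of 6 genes in each of the 12 libraries, with a line at each group mean. *CYCA3;1.A*, *POLD4.A* and the H3 gene HORVU.MOREX.r3.7HG0658120 are lowest in zeocin-treated *hvatr.g*, *TFIIIA* and *MAP65-1* are lowest in mock-treated Sebastian, and *TSO2* is highest in zeocin-treated *hvatr.g*.

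Another kind of negative difference came from genes with few transcripts in mock-treated WT. *TFIIIA* (HORVU.MOREX.r3.6HG0548800), for the factor that recruits RNA polymerase III to ribosomal RNA genes, had 57.8, 41.8 and 70.6 CPM in zeocin-treated *hvatr.g* and 24.6, 50.3 and 57.7 CPM in mock-treated *hvatr.g*, against 11.5, 13.6 and 5.24 CPM in zeocin-treated WT and 0.8202, 0.6199 and 0.774 CPM in mock-treated WT. It rose in WT, by 3.76 on the log2 scale, its response in *hvatr.g* was 0.36 (edgeR adjusted p 0.758), and mock-treated *hvatr.g* was above mock-treated WT by 5.89. Its difference was -3.40 ± 0.55 (SE, 95% interval -4.61 to -2.19), with an adjusted p of 0.185 in edgeR and 1.39e-06 in DESeq2. A gene nearby by its identifier, HORVU.MOREX.r3.6HG0548770, described as coatomer subunit delta of the vesicle coat, had the same order of groups, with 34.9, 23.4 and 42.7 CPM in zeocin-treated *hvatr.g* and 14.02, 28.6 and 33.2 CPM in mock-treated *hvatr.g*, against 11.3, 14.1 and 7.35 CPM in zeocin-treated WT and 0.844, 1.32 and 0.881 CPM in mock-treated WT, with a difference of -3.01 (95% interval -4.10 to -1.92). HORVU.MOREX.r3.3HG0323590, described as ribosomal protein L7/L12, had 41.3, 42.5 and 45.5 CPM in zeocin-treated *hvatr.g* and 6.18, 11.7 and 15.7 CPM in mock-treated *hvatr.g*, against 22.8, 25.3 and 15.5 CPM in zeocin-treated WT and 0.965, 0.592 and 0.614 CPM in mock-treated WT. It rose in both genotypes, by 1.95 in *hvatr.g* and by 4.86 in WT, with a difference of -2.91 ± 0.45 (SE, 95% interval -3.88 to -1.93). It was the 1 gene that edgeR called when mock-treated *hvatr.g* replicate 1 was left out (adjusted p 0.0221). HORVU.MOREX.r3.3HG0234060, described as the microtubule bundling protein MAP65-1, had 24.7, 10.5 and 29.97 CPM in zeocin-treated *hvatr.g* and 46.9, 95.01 and 124 CPM in mock-treated *hvatr.g*, against 4.54, 6.17 and 5.07 CPM in zeocin-treated WT and 1.76, 1.78 and 3.39 CPM in mock-treated WT. It fell in *hvatr.g*, with a log2 response of -2.03, its zeocin-treated WT libraries were all above its mock-treated WT libraries, and its difference was -3.21 ± 0.60 (SE, 95% interval -4.51 to -1.92). Mock-treated *hvatr.g* replicate 1 was the lowest of its group in all 4 of these genes. Of the 95 negative genes that DESeq2 called, 23 were at least 2 log2 units higher in mock-treated *hvatr.g* than in mock-treated WT. Both mock groups also enter the difference, so a higher mock level in *hvatr.g* favours a negative difference. The share of all genes tested at this limit is not given here, so the count is no evidence of its own. The level of such genes in zeocin-treated WT, relative to *hvatr.g*, varied between genes. Among 26 genes, chosen after their values were seen, with over 10 CPM in mock-treated *hvatr.g* and a level more than 16-fold lower in mock-treated WT, zeocin-treated WT had 0% to 35.2% of the level in zeocin-treated *hvatr.g* (median 7.36%). In 11 of the 26 this share was under 5%. By a 2-fold limit, 13 of the 26 were higher in zeocin-treated than in mock-treated WT.

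The remaining genes with the smallest p on the negative side fell in both genotypes, or fell in *hvatr.g* with a WT response that did not pass the fold threshold. HORVU.MOREX.r3.1HG0090820, described as CHUP1, a protein of chloroplast positioning, had 3.39, 3.62 and 3.01 CPM in zeocin-treated *hvatr.g* and 14.9, 14.4 and 13.99 CPM in mock-treated *hvatr.g*, against 7.99, 6.26 and 9.62 CPM in zeocin-treated WT and 14.2, 15.4 and 15.6 CPM in mock-treated WT. Its log2 response was -2.11 in *hvatr.g* and -0.92 in WT (edgeR adjusted p 0.00555 in WT), without overlap of zeocin and mock libraries in either genotype. The difference was -1.19 ± 0.22 (SE, 95% interval -1.67 to -0.72). HORVU.MOREX.r3.3HG0305870, described as a transmembrane protein, fell in both genotypes and had 1.83, 2.12 and 1.06 CPM in zeocin-treated *hvatr.g* and 30.6, 23.9 and 27.7 CPM in mock-treated *hvatr.g*, against 7.32, 3.64 and 8.97 CPM in zeocin-treated WT and 21.8, 21.3 and 26.2 CPM in mock-treated WT, which gave a difference of -2.23 (95% interval -3.14 to -1.33). Zeocin-treated *hvatr.g* was the lowest group in both genes without overlap.

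On the positive side the smallest p belonged to HORVU.MOREX.r3.2HG0096970, described as Prestin, an anion transporter family name, at a low level. It had 0.335, 0.362 and 0.659 CPM in zeocin-treated *hvatr.g* and 0.265, 0.161 and 0.240 CPM in mock-treated *hvatr.g*, against 0, 0 and 0 CPM in zeocin-treated WT and 0.458, 0.817 and 0.454 CPM in mock-treated WT. With no count in any zeocin-treated WT library, the fall in WT is only bounded, at least 6.85-fold against mock if each library is allowed 3 counts, and the fitted difference of 8.67 depends on how a count of 0 is treated. Limma-voom called this gene alone (adjusted p 0.0367), and its edgeR adjusted p was 0.149. HORVU.MOREX.r3.2HG0209560, described as a Dof zinc finger transcription factor, had 20.6, 17.1 and 18.4 CPM in zeocin-treated *hvatr.g* and 6.18, 6.83 and 5.57 CPM in mock-treated *hvatr.g*, against 29.8, 31.98 and 34.6 CPM in zeocin-treated WT and 24.7, 21.98 and 21.9 CPM in mock-treated WT. It rose by 1.59 on the log2 scale in *hvatr.g* and by 0.49 in WT (edgeR adjusted p 0.0443 in WT), and all *hvatr.g* libraries were below all WT libraries. Its difference was 1.10 ± 0.17 (SE, 95% interval 0.74 to 1.47) with an edgeR adjusted p of 0.149 and a DESeq2 adjusted p of 4.89e-06. HORVU.MOREX.r3.5HG0499030, described as the ATP-binding subunit of the Clp protease, which unfolds proteins for breakdown, had 54.8, 42.9 and 59.8 CPM in zeocin-treated *hvatr.g* and 16.1, 19.9 and 16.5 CPM in mock-treated *hvatr.g*, against 39.3, 48.6 and 34.8 CPM in zeocin-treated WT and 28.8, 30.1 and 33.7 CPM in mock-treated WT. Its log2 response was 1.58 in *hvatr.g* and 0.41 in WT (edgeR adjusted p 0.270 in WT). Its mock level in *hvatr.g* was below that of WT, and the difference was 1.18 (95% interval 0.70 to 1.66). HORVU.MOREX.r3.3HG0254160, described as Restriction of telomere capping protein 1, was raised strongly in both genotypes, with 38.8, 24.7 and 33.2 CPM in zeocin-treated *hvatr.g* and 0.172, 0.303 and 0.144 CPM in mock-treated *hvatr.g*, against 15.1, 14.2 and 10.6 CPM in zeocin-treated WT and 0.482, 0.282 and 0.294 CPM in mock-treated WT. The mock groups overlapped at their low level, all zeocin-treated *hvatr.g* libraries were above those of WT, and the difference was 2.04 (95% interval 1.09 to 2.99). HORVU.MOREX.r3.2HG0177640, described as a B-box zinc finger protein, had log2 responses of 1.17 in *hvatr.g* and 0.31 in WT (edgeR adjusted p 0.412 in WT), with a difference of 0.86 (95% interval 0.42 to 1.29). The difference of HORVU.MOREX.r3.7HG0645710, described as a phosphate-responsive 1 family protein, was 0.78 (95% interval 0.40 to 1.15). The list was completed by HORVU.MOREX.r3.5HG0444440 and HORVU.MOREX.r3.6HG0580790, which have no description in the tables used, with 1.44 (95% interval 0.79 to 2.08) and 1.39 (95% interval 0.68 to 2.104), and by HORVU.MOREX.r3.7HG0686410, described as a retrotransposon protein, with 2.62 (95% interval 1.27 to 3.96) at levels of at most 1.41 CPM. None of these 10 positive genes passed in edgeR with the filter on low counts, and DESeq2 called all 10 of them. Without that filter edgeR also called the Prestin, Dof and Clp genes and HORVU.MOREX.r3.5HG0444440.

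The regulators and repair genes that the study's text names around ATR, matched by identifier or by description, came to 31 genes with enough counts, and are given here by role. They were named from the same libraries. The 95% interval of the difference included 0 in 21 of them, lay below 0 in 10 and above 0 in none, and it lay wholly between -1 and 1 in 12. Over all 26039 genes tested the interval excluded 0 in 1121 and lay wholly between -1 and 1 in 56.5%. None of the 31 passed in edgeR after adjustment. Among the transcription factors, *SOG1* (HORVU.MOREX.r3.7HG0670800) had 11.4, 10.2 and 9.98 CPM in zeocin-treated *hvatr.g* and 10.5, 9.31 and 10.6 CPM in mock-treated *hvatr.g*, against 8.97, 9.51 and 7.47 CPM in zeocin-treated WT and 10.2, 9.33 and 6.44 CPM in mock-treated WT, with a difference of 0.06 (95% interval -0.47 to 0.59). Of its relatives named SGL, *SGL.D* (HORVU.MOREX.r3.2HG0175560) and *SGL.A* (HORVU.MOREX.r3.6HG0590960) rose in both genotypes, with differences of 0.19 (95% interval -0.28 to 0.66) and -0.16 (95% interval -0.86 to 0.54). *SGL.C* (HORVU.MOREX.r3.2HG0175550) also rose in both, and it had 6.34, 4.22 and 7.68 CPM in zeocin-treated *hvatr.g* and 1.72, 1.34 and 1.03 CPM in mock-treated *hvatr.g*, against 1.99, 2.32 and 1.55 CPM in zeocin-treated WT and 0.241, 0.0845 and 0.107 CPM in mock-treated WT. Its level was higher in *hvatr.g* under both treatments without overlap, and its difference was -1.56 (95% interval -2.68 to -0.44) with an unadjusted p of 0.0103 and an adjusted p of 0.791 in edgeR.

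For the genes of this group that are given next, which act in finding and mending breaks, the interval of the difference included 0. *PARP2* (HORVU.MOREX.r3.7HG0726670), a poly(ADP-ribose) polymerase that marks broken DNA, had 213, 164 and 157 CPM in zeocin-treated *hvatr.g* and 14.2, 12.5 and 10.99 CPM in mock-treated *hvatr.g*, against 138, 213 and 107 CPM in zeocin-treated WT and 14.2, 13.3 and 9.45 CPM in mock-treated WT. It rose by 3.82 in *hvatr.g* and by 3.63 in WT, with a difference of 0.19 (95% interval -0.53 to 0.92). *BRCA1* (HORVU.MOREX.r3.1HG0078370), a ubiquitin ligase of homologous recombination, had 47.4, 40.4 and 36.6 CPM in zeocin-treated *hvatr.g* and 16.4, 12.7 and 10.3 CPM in mock-treated *hvatr.g*, against 24.02, 45.7 and 18.7 CPM in zeocin-treated WT and 10.7, 13.4 and 7.64 CPM in mock-treated WT, with a difference of 0.18 (95% interval -0.76 to 1.12). Zeocin-treated WT replicate 2 was the highest of its group for both genes, and also for *BCP1* (HORVU.MOREX.r3.6HG0554520), a BRCT domain gene with a difference of -0.05 (95% interval -0.80 to 0.70), and for *RAD54* (HORVU.MOREX.r3.6HG0617770), a translocase of recombination with 0.01 (95% interval -0.92 to 0.94). *NSE4.A* (HORVU.MOREX.r3.7HG0724600), a subunit of the SMC5/6 complex, was measured more tightly, with 10.4, 8.51 and 10.2 CPM in zeocin-treated *hvatr.g* and 2.56, 1.93 and 2.78 CPM in mock-treated *hvatr.g*, against 9.03, 9.76 and 9.42 CPM in zeocin-treated WT and 2.53, 2.71 and 3.18 CPM in mock-treated WT, with a difference of 0.26 (95% interval -0.26 to 0.77). *MRE11.B* (HORVU.MOREX.r3.7HG0715110), for the nuclease that trims break ends, was raised in both genotypes and had a difference of -0.42 (95% interval -1.53 to 0.69). *REV3* (HORVU.MOREX.r3.2HG0114320), the catalytic subunit of the translesion polymerase zeta, was raised in both, with a difference of 0.02 (95% interval -0.68 to 0.71). *GMI1* (HORVU.MOREX.r3.1HG0058570), an SMC-like gene induced by gamma rays in *Arabidopsis*, had at most 3 counts in every mock library. It was at least 10.1-fold higher after zeocin in *hvatr.g* and at least 6.23-fold higher in WT, if each mock library is allowed 3 counts, and the fitted difference of 2.08 (95% interval -0.46 to 4.63) is no bound. For *ATR*, *PARP2*, *REV3*, *SOG1*, *SGL.A*, *BRCA1*, *BCP1*, *RAD54* and *ARP.B* the sign of the difference changed when 1 library or another was left out.

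The study's text also names helicases, partners of theirs and excision repair genes. *RECQL3* (HORVU.MOREX.r3.6HG0620770), a RecQ helicase, had 30.2, 22.8 and 25.4 CPM in zeocin-treated *hvatr.g* and 16.8, 13.7 and 12.8 CPM in mock-treated *hvatr.g*, against 21.2, 27.5 and 18.2 CPM in zeocin-treated WT and 12.8, 9.64 and 8.76 CPM in mock-treated WT, with a difference of -0.24 (95% interval -0.83 to 0.34). *RECQL2.A* (HORVU.MOREX.r3.2HG0111650), of the same family, had -0.28 (95% interval -0.91 to 0.35), and *RMI1* (HORVU.MOREX.r3.2HG0163290), a partner of RecQ helicases in dissolving joined DNA molecules, had -0.88 (95% interval -1.60 to -0.17). *EME1B.A* (HORVU.MOREX.r3.2HG0204920), whose product cuts such molecules with MUS81, had log2 responses of 1.15 in *hvatr.g* and 0.90 in WT (edgeR adjusted p 0.0241 and 0.128). Its difference was 0.25 (95% interval -0.59 to 1.09). *ARP.B* (HORVU.MOREX.r3.3HG0295150) and *ARP.C* (HORVU.MOREX.r3.7HG0711830), endonucleases of base excision repair, had 0.36 (95% interval -0.62 to 1.35) and 0.78 (95% interval -0.09 to 1.65). In *ARP.B*, mock-treated WT replicate 3 had 2.75 CPM and the other mock-treated WT libraries 1.01 and 0.930 CPM, and without that replicate the difference was -0.32. A gene that the study's tables describe as of the Rad23 family (HORVU.MOREX.r3.6HG0557300), of nucleotide excision repair, had log2 responses of 1.02 in *hvatr.g* and 0.57 in WT (edgeR adjusted p 0.0358 and 0.410). Its difference was 0.44 (95% interval -0.36 to 1.25). Too few counts were found to test the other *ARP* gene, *TDP1*, *SGL.B* and the gene that the study's identifier list gives as *RAD23* (HORVU.MOREX.r3.6HG0569510).

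**Figure D5:**
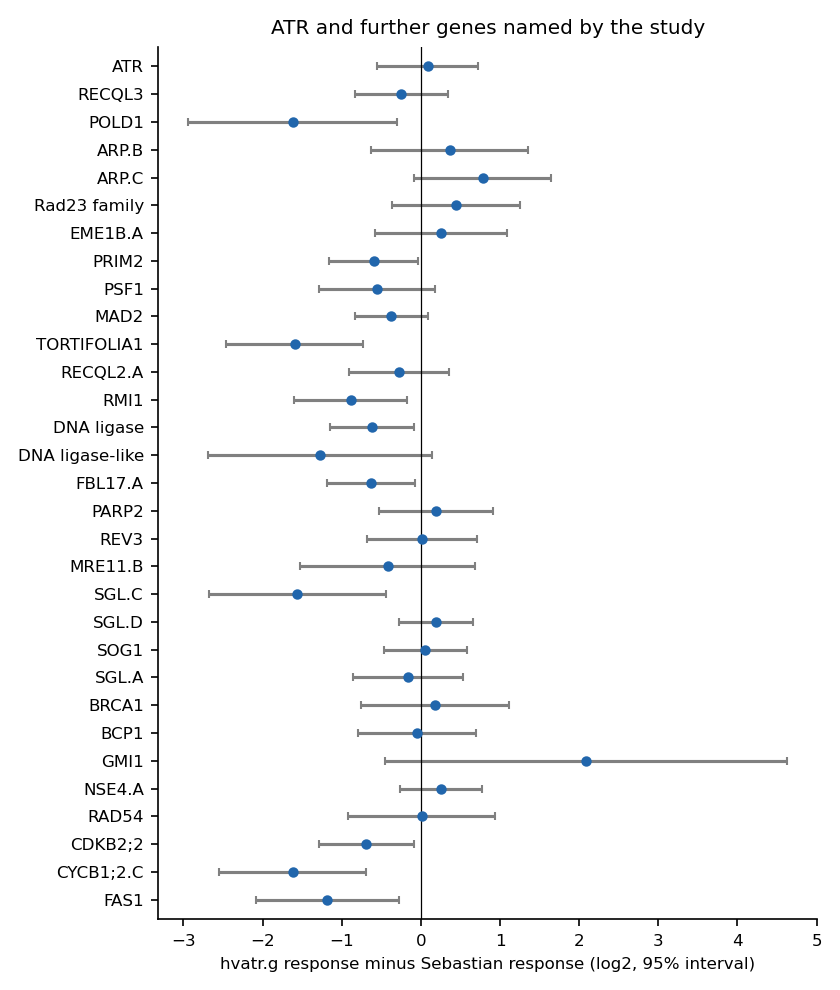
Difference between the zeocin responses (points, log2, *hvatr.g* minus Sebastian) with its 95% interval (bars) for *ATR* and 30 further genes named by the study. Intervals of 21 genes include 0, those of 10 lie below it, and the interval of *GMI1*, at most 3 counts in every mock library, is the widest.

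Across the whole homology list of damage response genes, 322 of 421 genes were tested, in 325 rows. Their median difference was -0.06, with 209 negative and 116 positive, 18 negative and 2 positive at an unadjusted p under 0.05, and 3 called by DESeq2, against 3.09% and 1.21% of all genes tested at that unadjusted p. Without mock-treated *hvatr.g* replicate 1 these were 11 negative and 4 positive, without zeocin-treated *hvatr.g* replicate 3 the negative ones were 11, and without mock-treated WT replicate 3 the positive ones were 4. The positive ones were 1 without mock-treated *hvatr.g* replicate 2 or 3, zeocin-treated *hvatr.g* replicate 1 or 2, or mock-treated WT replicate 2. The median was -0.036 without either of the first 2 of these libraries and -0.035 without zeocin-treated WT replicate 2. For 252 rows the interval lay wholly between -1 and 1. By pathway, homologous recombination (60 of 79 genes tested) had a median of -0.18, with 46 negative, 14 positive and 6 negative at an unadjusted p under 0.05. Replication protein A (16 of 24), the proteins that coat single-stranded DNA, had -0.26, the SMC5/6 complex (7 of 7) -0.23 and mismatch repair (39 of 57), which shares genes with replication, -0.13. The Fanconi and BTR complexes (17 of 20) had -0.14, nucleotide excision repair (41 of 53) -0.05, base excision repair (16 of 28) -0.05 and translesion synthesis (18 of 30) -0.06. Checkpoint genes (16 of 16) had a median of -0.10 and end joining genes (8 of 9) one of 0.01, and neither had a gene at an unadjusted p under 0.05. The 9 cell cycle genes of this list (of 19) had a median of -0.14. *PCNA2.I* (HORVU.MOREX.r3.6HG0627010) among them, for the clamp that holds polymerases on DNA, fell in both genotypes with a difference of -0.65 (95% interval -1.16 to -0.14), and *ETG1* (HORVU.MOREX.r3.3HG0234670), for the MCM-binding protein, had -0.85 (95% interval -1.46 to -0.23). *WEE1* (HORVU.MOREX.r3.6HG0555240), the kinase that holds cells before mitosis and that ATR switches on in *Arabidopsis*, had 32.3, 33.3 and 31.3 CPM in zeocin-treated *hvatr.g* and 36.4, 34.8 and 30.3 CPM in mock-treated *hvatr.g*, against 32.96, 32.5 and 36.1 CPM in zeocin-treated WT and 32.7, 33.1 and 30.5 CPM in mock-treated WT, and its difference of -0.14 (95% interval -0.45 to 0.16) had a narrow interval. These 3 were chosen after their values were seen.

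Defence and detoxification families differed among themselves. All are families that the study listed from these libraries, so their direction is not independent evidence. The median log2 level of mock-treated *hvatr.g* over mock-treated WT was 2.83 for pathogenesis-related protein 1 and 2.16 for glycosyltransferases. Both mock groups also enter the difference. For pathogenesis-related protein 1 the WT response was called for 5 genes and the *hvatr.g* response for 2. Over all genes tested 3.09% had a negative and 1.21% a positive difference at an unadjusted p under 0.05. The 8 genes for pathogenesis-related protein 1, an antimicrobial marker of defence, had a median difference of -1.91, with 7 negative and 5 at an unadjusted p under 0.05, a count that was 2 to 7 when 1 library was left out. In zeocin-treated WT it was 2 with replicate 1 removed, 7 with replicate 2 removed and 3 with replicate 3 removed. It was also 3 with replicate 1 or 3 of zeocin-treated *hvatr.g*, replicate 2 of mock-treated *hvatr.g*, or replicate 1 or 2 of mock-treated WT removed. Without both WT replicate 3 libraries it was 2. The median was -1.22 without zeocin-treated WT replicate 1. HORVU.MOREX.r3.5HG0444150 had 73.3, 85.98 and 78.2 CPM in zeocin-treated *hvatr.g* and 29.0, 21.6 and 29.4 CPM in mock-treated *hvatr.g*, against 52.2, 12.6 and 40.96 CPM in zeocin-treated WT and 3.64, 1.89 and 3.63 CPM in mock-treated WT. It rose in both genotypes, mock-treated *hvatr.g* was already above mock-treated WT, and zeocin-treated WT replicate 2 stood below the others of its group, with a difference of -1.95 (95% interval -3.18 to -0.73). Glycosyltransferases, which attach sugars to small molecules and toxins, had a median of -0.66 over 27 genes, with 18 negative, 11 at an unadjusted p under 0.05, all negative, and 5 called by DESeq2. HORVU.MOREX.r3.3HG0282740 had 1043, 877 and 1138 CPM in zeocin-treated *hvatr.g* and 266, 275 and 218 CPM in mock-treated *hvatr.g*, against 287, 380.0 and 182 CPM in zeocin-treated WT and 22.4, 14.4 and 22.7 CPM in mock-treated WT. It rose in both, by less in *hvatr.g* on the log2 scale (2.01, against 3.83 in WT), and its difference was -1.82 (95% interval -2.57 to -1.07) with a DESeq2 adjusted p of 9.46e-04. Glutathione S-transferases split, with 4 positive and 6 negative at an unadjusted p under 0.05 of 18 and a median of -0.10. HORVU.MOREX.r3.1HG0066370 was raised in both, with 525, 463 and 538 CPM in zeocin-treated *hvatr.g* and 109, 80.6 and 80.7 CPM in mock-treated *hvatr.g*, against 312, 326 and 261 CPM in zeocin-treated WT and 83.6, 92.0 and 85.05 CPM in mock-treated WT, with a difference of 0.71 (95% interval 0.30 to 1.12), and HORVU.MOREX.r3.1HG0051880, which was higher in mock-treated *hvatr.g*, had -1.32 (95% interval -2.16 to -0.49). The medians of cytochrome P450 (20 genes), chitinase (8 rows), WRKY (8) and NAC (11) genes were -0.52, -0.48, -0.06 and -0.16, with 2, 0, 2 and 2 genes at an unadjusted p under 0.05. Ethylene-responsive factors (6) and lectin receptor kinases (7) had positive medians of 0.51 and 0.72, leucine-rich repeat receptor kinases (11) 0.15.

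Genes of nitrogen uptake and use had a positive median difference. The study's list of nitrogen transport and metabolism, also drawn from these libraries, held 33 genes, of which 31 were tested in 32 rows. The study gives this list with its comparison of mock-treated *hvatr.g* and mock-treated WT. Here the median log2 level of mock-treated *hvatr.g* over mock-treated WT was -1.34 across the list. Both mock groups also enter the difference, so the direction of the list is not independent evidence. The median difference of these rows was 0.43, with 22 positive and 10 negative. At an unadjusted p under 0.05 there were 5 positive and 1 negative, against 1.21% and 3.09% of all genes tested. Leaving out zeocin-treated WT replicate 2 gave 2 positive genes, and leaving out replicate 3 of either zeocin-treated or mock-treated *hvatr.g* gave 3. The median was 0.25 without mock-treated *hvatr.g* replicate 1 and also with a stricter filter on low counts. No gene was negative at that p when replicate 1 or 2 of zeocin-treated *hvatr.g*, replicate 1 of mock-treated *hvatr.g*, replicate 1 of zeocin-treated WT, or replicate 1 or 2 of mock-treated WT was left out. Neither genotype's response was called for any of them. HORVU.MOREX.r3.1HG0056410, a nitrate transporter, had 55.4, 50.1 and 55.4 CPM in zeocin-treated *hvatr.g* and 36.8, 52.2 and 31.8 CPM in mock-treated *hvatr.g*, against 57.9, 70.5 and 107 CPM in zeocin-treated WT and 119.9, 112 and 134 CPM in mock-treated WT. It was lower in mock-treated *hvatr.g* than in mock-treated WT, its difference was 1.05 (95% interval 0.38 to 1.71), and its unadjusted p of 0.00499 in edgeR did not survive adjustment. Nicotianamine synthase genes, which make a chelator of iron and other metals, were listed as markers by their description. It comes from the study's tables of these libraries, so their direction is not independent evidence. All 8 had a negative difference, with a median of -2.56 and none at an unadjusted p under 0.05. Summed, they had at most 1.46 CPM in any *hvatr.g* library, against 888, 287 and 40.6 CPM in zeocin-treated WT and 6.296, 81.1 and 62.0 CPM in mock-treated WT, so that the fitted differences rest on a few counts in *hvatr.g* and on 1 WT library with 888 CPM. Genes for xyloglucan endotransglucosylases (6 listed by the study) and peroxidases (11), enzymes of the cell wall, had medians of -0.59 and -0.69. The peroxidase median was -0.23 without zeocin-treated *hvatr.g* replicate 3.

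A gene called in 1 genotype and not in the other is not thereby shown to differ. With the same thresholds in edgeR, 580 genes were called in 1 genotype only, 203 were raised and 218 lowered in both, and 0 were called in opposite directions. Of the 580, 552 had the same sign of response in the other genotype, and for 304 the 95% interval of the difference included 0. The interaction test in edgeR called 0 of the 580 after adjustment, DESeq2 41, and 276 (47.6%) had an unadjusted p under 0.05. The selection on the same libraries favours large differences, so no share among them is read as evidence. The 341 genes lowered in *hvatr.g* only had median responses of -1.48 in *hvatr.g* and -0.80 in WT. For the 133 raised in *hvatr.g* only the medians were 1.54 and 0.87, for the 89 raised in WT only 0.75 in *hvatr.g* and 1.67 in WT, and for the 17 lowered in WT only -0.72 and -1.29. Genes called in both had a median difference of -0.04 where raised (203 genes) and, where lowered, a median difference of -0.96 over 218 genes and median responses of -2.37 in *hvatr.g* and -1.43 in WT.

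The 112 genes that DESeq2 called extend these groups. Of the 95 negative ones, 68 were further down in *hvatr.g*, 19 lower in *hvatr.g* and higher in WT, and 8 higher in both and less so in *hvatr.g*. Histone, cyclin, kinesin-like and TPX2 genes made up 16 of the 112. Others, chosen after their values were seen, were HORVU.MOREX.r3.1HG0039930, described as Shugoshin-1, the protector of centromere cohesion (-1.11), and HORVU.MOREX.r3.2HG0194580 and HORVU.MOREX.r3.7HG0708120, described as high mobility group chromatin proteins (-2.13 and -1.20). Of the 17 positive ones, 9 were further up in *hvatr.g* and 8 were higher in *hvatr.g* and lower in WT. The fitted difference of *CYCA3;1.A* was -2.05 in edgeR and -2.03 in DESeq2. For genes with groups near 0 counts the tools lay further apart, at 8.67 and 7.88 for the Prestin gene and 2.08 and 2.22 for *GMI1*.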

How the data were processed

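Libraries of poly(A) RNA from dissected root apices of WT (cultivar Sebastian) and *hvatr.g* were sequenced by the authors, 3 per genotype and treatment. Per the submitters' processing notes, reads were aligned with HISAT2 2.1.0 and counted per gene with Subread 1.5.2, and per the study's methods the reference was the Morex barley assembly. The values used are the deposited raw counts, as the authors summed them per gene, with no normalization. How strand and reads with several matches were treated is not given in the sources used here. Totals were between 36100439 and 74699245 counts per library, and intervals cover the spread between libraries, not other sources of error.

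Rows with enough counts for at least 1 group (edgeR's filterByExpr, 26039 of 83990) were scaled by TMM and fitted with 1 coefficient per group over all 12 libraries by edgeR 4.0.16 (quasi-likelihood test, two-sided) in R 4.3.3. The interaction was the contrast of the 2 zeocin responses, with p-values adjusted by Benjamini-Hochberg over all rows tested and called at an adjusted p under 0.05. CPM, counts scaled to a common library total, use the TMM-scaled library sizes. Alternatives were DESeq2 1.42.0, limma-voom (limma 3.58.1), other scalings and filters, replicate blocks and leaving out libraries. The script was tested on simulated data.

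Named genes were the 10 with the smallest p in each direction, *ATR*, and genes that the study's text names. The members, gene lists and tests were chosen with earlier results of these data known. Families of histones, cyclins and others were taken from the study's tables, which were made from these libraries, and damage response genes from its homology search. Lists are described by counts and medians only. Promoter motifs and lists by product name were not analysed here, and no sequence is shown. Deviations of same-numbered zeocin and mock libraries from their group means correlated at 0.312 to 0.543 across genes in WT (other numbers -0.425 to 0.182) and at 0.0268 to 0.177 in *hvatr.g* (other numbers -0.228 to 0.0662). Same-numbered WT libraries thus deviated together, while 1 of 3 *hvatr.g* pairs did not reach 0.1. Between the genotypes, same-numbered mock libraries correlated at 0.267, -0.0155 and 0.274 for replicates 1, 2 and 3. These correlations come from the data, and the labels name no pairing. The main fit has no term for the replicate number, so its p-values and intervals take no account of such a pairing.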

Additional observations from a re-analysis of the deposited data

Results flagged for a closer look

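In 4 of the genes named above zeocin and mock libraries moved in opposite directions without overlap in both genotypes, a pattern seen in 47 of 26039 genes. The difference between the responses was -3.21 for the MAP65-1 gene HORVU.MOREX.r3.3HG0234060, which was lower after zeocin in *hvatr.g* and higher in WT. It was 8.67 for the Prestin gene HORVU.MOREX.r3.2HG0096970, 1.44 for HORVU.MOREX.r3.5HG0444440 and 2.62 for the retrotransposon gene HORVU.MOREX.r3.7HG0686410, which were higher after zeocin in *hvatr.g* and lower in WT. The difference was tested with edgeR's quasi-likelihood interaction and did not pass, with adjusted p of 0.283, 0.149, 0.326 and 0.3999 in the order given. Without the filter on low counts edgeR called all but the retrotransposon gene. All 4 were named for a small p of this same difference, which favours such a pattern, so the pattern is no added evidence. Not every single response passed in edgeR. The adjusted p was 0.247 in WT for MAP65-1, 0.315 in *hvatr.g* for Prestin and 0.178 in WT for HORVU.MOREX.r3.5HG0444440. For the retrotransposon gene it was 0.0587 in *hvatr.g* and 0.318 in WT.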

How the results depend on the processing

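The number of genes called for the interaction was 0 under most settings. Exceptions for positive differences were no filter on low counts (4), limma-voom (1) and DESeq2 (17), and for negative ones no filter (29), DESeq2 (95) and leaving out 1 library (0 to 1). At an unadjusted p under 0.05, positive differences numbered 489 without a filter, 755 with a replicate block within each genotype, 624 without both WT replicate 3 libraries and 234 to 635 when 1 library was left out. Negative ones numbered 1550 with the block within genotype, 1323 without both WT replicate 3 libraries and 618 to 1599 when 1 was left out. The highest of these counts, 635 and 1599, came without mock-treated WT replicate 3. With 1 replicate block across genotypes they were 449 and 1015, with 0 called. The block within genotype also left 0 called. The sign turned for *ARP.B* (-0.30 without both WT replicate 3 libraries), *RAD54* (-0.0456 there) and *REV3* (-0.003254 with the block within genotype and -0.004738 in limma-voom). Leaving out 1 library gave *ATR* -0.056 to 0.28, *ARP.B* -0.32 to 0.63, *PARP2* -0.0104 to 0.51, *REV3* -0.16 to 0.24, *SOG1* -0.0791 to 0.23, *SGL.A* -0.44 to 0.11, *BRCA1* -0.0664 to 0.64, *BCP1* -0.26 to 0.30 and *RAD54* -0.22 to 0.42. The median of the damage response list was -0.039 with library size scaling and -0.019 with upper quartile scaling. The median of the NAC list was 0.11 without zeocin-treated WT replicate 2. For H2A genes it was -0.43 when replicate 3 of zeocin-treated WT was left out and -0.84 when replicate 3 of mock-treated WT was left out. The cause of these shifts was not tested. The earlier form of edgeR's quasi-likelihood fit is the one used here, so it gave no separate values.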
